A study of Mus musculus with 2 samples.

Results

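The cells described here were CD8 T cells of the mouse spleen that carried many transcripts of Ly6c2, which encodes the surface glycoprotein Ly6C2, and few or none of the chemokine gene Ccl5. They were selected on measured values: a barcode was taken when it had at least 500 detected genes, at most 10% of its unique molecular identifiers (UMIs) from mitochondrial genes, at least 2 UMIs of Ly6c2, at most 3 of Ccl5 and 0 of Gzmk, a granzyme gene. The rule found 2128 Ly6c2-high Ccl5-low cells among 13620 barcodes that passed the limits on genes and mitochondrial UMIs. In the library of the old recipient they were 926 of 5619 barcodes, or 16.5% (exact binomial interval 15.5 to 17.5), and in that of the young donor 1202 of 8001, or 15.0% (14.3 to 15.8). The order of these shares hung on the rule. It turned to 11.5% and 11.8% when at least 5 UMIs of Ly6c2 were asked for, to 9.34% and 9.62% when Ccl5 had to be at 0, and to 15.2% and 16.1% when the rule was read after each cell had been thinned to 3500 UMIs.

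Both libraries came from a transfer of young CD8 T cells into an old host. Total CD8 T cells were isolated with a kit from CD45.1 C57BL/6J mice of 3 months, at a stated purity above 95%, and given to CD45.2 C57BL/6J mice of 24 months, and the spleen was taken 1 month later, when the host was 25 months old. The young donor library holds sorted CD45.1+CD3e+CD8a+ cells and the old recipient library sorted CD45.2+CD3e+CD8a+ cells, all from wild-type animals kept pathogen-free and perfused before harvest. There was 1 library per group, the labels do not say whether both came from 1 animal or from pools, and the donor cells had spent 1 month in an old host, so that age, host history, transfer, CD45 strain and library cannot be told apart.

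Ly6C is a small glycoprotein anchored in the cell membrane by a lipid. On mouse CD8 T cells it is low on many naive cells and high on most memory cells, including memory-phenotype cells that arise through cytokines without infection, and it can be raised by interferons. Naive cells are known for Ccr7, Lef1 and Igfbp4 transcripts, and memory cells for Il2rb, Eomes, Tbx21, Cxcr3 and, as they mature, Ccl5 and granzymes.

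The libraries held 6174 and 8588 barcodes with 41504941 and 65006187 UMIs, of which 555 and 587 barcodes failed the limits. The Ly6c2-high Ccl5-low cells had median depths of 8557 (recipient) and 8383.5 UMIs (donor), above the medians of all kept barcodes (7044 and 7928). They were set beside 1579 recipient and 807 donor cells with no Ly6c2 UMI and at most 3 of Ccl5 (Ly6c2-zero cells, medians of 7002 and 7427 UMIs), and beside 1382 and 4197 cells with at least 2 UMIs of Ly6c2 and at least 10 of Ccl5 (Ccl5-high cells, medians of 7790 and 8652). The comparison cells were not limited in Gzmk. It was found in 249 (18.0%) recipient and 325 (7.74%) donor Ccl5-high cells, and in 17 (1.08%) and 24 (2.97%) Ly6c2-zero cells. A level below is the number of UMIs of a gene after all UMIs of the same cells were scaled to a sum of 1000000 (CPM), with an exact Poisson interval, and a ratio of levels is given as log2 with an exact conditional interval in brackets. These intervals cover counting error only. With 1 library per group no test was possible, and a gene is called higher or lower when its ratio was at least 1.5-fold with an interval that left out equality, for the contrasts between cell groups in both libraries. A doublet score marked 3.13% and 3.99% of the Ly6c2-high Ccl5-low cells, which were kept, against 8.47% and 8.60% of Ccl5-high cells. The libraries shared 105 barcode sequences, 12 of them on these cells counted over both libraries.

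The values that chose the cells are a description only. Ly6c2 (ENSMUSG00000022584, chromosome 15, 75108158 to 75111970, minus strand) stood at 1083 CPM in recipient and 1338 CPM in donor Ly6c2-high Ccl5-low cells, and at 1895 and 1961 CPM in Ccl5-high cells. Single cells ranged from the required 2 UMIs, found in 106 recipient and 92 donor cells, to 58 and 74, with medians of 7 and 9. Ccl5 was at 0 in 525 (56.7%) and 770 (64.1%) of them, and its level was 76.3 and 65.6 CPM against 11250 and 8627 in Ccl5-high cells. Ly6c1, a near-identical neighbour of Ly6c2, had only 1.95 and 2.90 CPM, and reads of these genes may have been assigned to the wrong copy. Of cells near the rule, 287 recipient and 170 donor cells had exactly 1 Ly6c2 UMI, 137 and 249 had 4 to 9 of Ccl5, and 5 in each library missed it through Gzmk alone.

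Dapl1, Plac8 and Id3 go with the label of these cells, and the rule did not use them. They were chosen with earlier results of these data known, so their levels are a description and not a check of the label. Plac8 (ENSMUSG00000029322, chromosome 5, 100553725 to 100572245), which encodes a small cysteine-rich protein, was higher in these cells than in both comparison groups, in both libraries. Its level was 315 CPM (303 to 328) for recipient and 319 (308 to 330) for donor Ly6c2-high Ccl5-low cells, against 167 and 194.5 in Ly6c2-zero and 168 and 192 in Ccl5-high cells. Plac8 was thus higher than in either comparison group, by 0.91 [0.83, 1.00] and 0.71 [0.62, 0.81] against Ly6c2-zero cells and by 0.91 [0.82, 0.99] and 0.74 [0.68, 0.80] against Ccl5-high cells. Dapl1 (chromosome 2, 59484653 to 59505020) had 462 CPM (448 to 477) and 581 (567 to 596), above Ccl5-high cells at 144 and 215 by 1.68 and 1.43. Against Ly6c2-zero cells, at 254 and 460 CPM, it passed the fold in the recipient (0.86 [0.79, 0.93]) and not in the donor (0.34 [0.27, 0.40]). Id3 (chromosome 4, 136143497 to 136145755), a transcriptional inhibitor kept by long-lived T cells, did not set them apart from Ly6c2-zero cells by the fold. It had 90.4 and 113 CPM against 87.2 and 82.9 in Ly6c2-zero cells, ratios of 0.05 [-0.09, 0.19] and 0.45 [0.30, 0.61], and passed the fold against Ccl5-high cells in the donor only (1.29, against 0.52 in the recipient). With TMM scaling, or with large gene families left out of the totals, Id3 passed it against Ccl5-high cells in both libraries.

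The sorted identity was plain in them. Cd3e stood at 814 and 796 CPM, Cd8a at 539 and 610 and Cd8b1 at 1676 and 1686. Of 9 lists of other cell types, the defining B-cell genes Ms4a1 and Pax5, the myeloid genes Itgam, Fcgr1 and F13a1, the plasmacytoid genes Siglech and Klk1 and the NK genes Ncr1, Klra8 and Klra4 had no UMI in either library. The summed levels were 35.8 and 43.3 CPM for 8 B-cell genes, of which Cd79b made up 29.9 and 38.0, and 91.3 and 98.0 CPM for 11 monocyte genes, of which Cst3 made up 84.2 and 88.4. Plasmacytoid genes summed to 14.6 and 16.9 CPM, NK genes to 1.58 and 0.871, CD4 T-cell genes to 1.95 and 1.26, gamma-delta genes to 2.68 and 1.55, erythroid genes to 7.07 and 8.42, neutrophil genes to 2.07 and 2.90 and platelet genes to 0 and 0.387.

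Against Ly6c2-zero cells, the Ly6c2-high Ccl5-low cells carried more transcripts of 9 of 19 tested memory genes, while most naive genes did not pass the fold. Both groups were held to at most 3 Ccl5 UMIs but were not level in it. Ccl5 stood at 76.3 and 65.6 CPM against 55.7 and 32.0 in Ly6c2-zero cells. The part of this difference was not tested beyond the setting with Ccl5 at 0. The chemokine receptor gene Cxcr3 (ENSMUSG00000050232, chromosome X, 101731535 to 101734269) led. Recipient cells held 65.2 CPM (59.8 to 71.0) and donor cells 126 (119 to 133), against 16.9 (14.6 to 19.5) and 33.3 (28.8 to 38.3) in Ly6c2-zero cells, ratios of 1.95 [1.70, 2.19] and 1.92 [1.70, 2.14]. Tbx21, which encodes T-bet, was sparse but more unequal, at 12.4 and 25.4 CPM against 3.04 and 4.21, ratios of 2.03 [1.46, 2.64] and 2.59 [2.00, 3.25]. Eomes, the T-box factor that sustains CD122, stood at 31.8 and 35.1 CPM against 14.1 and 15.5, a ratio of 1.18 in both libraries. Il2rb, which encodes CD122, the receptor chain shared by interleukin-2 and interleukin-15, had 117 and 155 CPM against 76.2 and 74.0, and Cd44, the classical memory marker, 16.7 and 21.6 against 10.5 and 9.25. The Il2rb ratios were 0.61 [0.48, 0.75] and 1.06 [0.91, 1.22], and the Cd44 ratios 0.67 [0.31, 1.04] and 1.22 [0.79, 1.68]. When Ccl5 had to be at 0, the recipient ratios fell below the fold for Il2rb (0.52) and Cd44 (0.57).

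**Figure D1:**
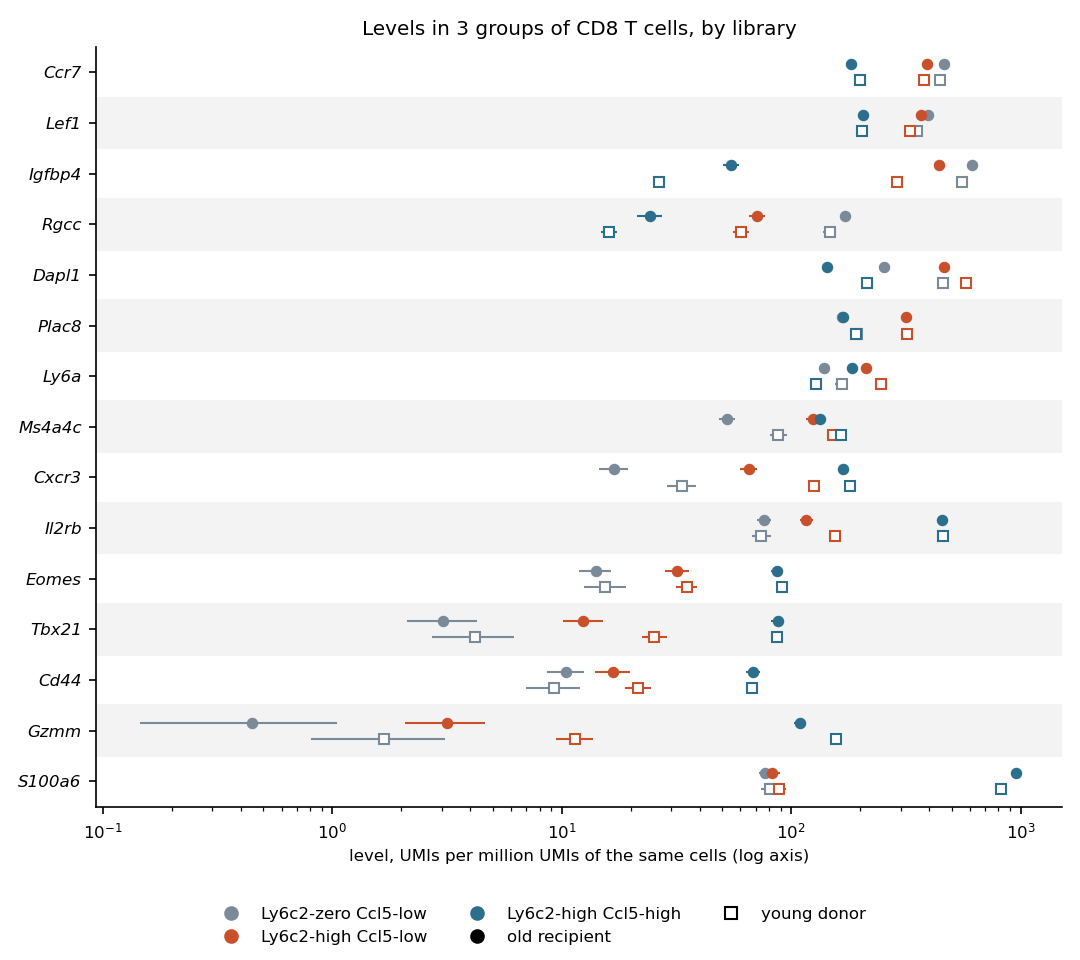
Levels of 15 genes, in CPM on a log axis, in Ly6c2-zero cells (grey), Ly6c2-high Ccl5-low cells (orange) and Ccl5-high cells (blue); filled circles are the old recipient library, open squares the young donor library, and bars are exact Poisson intervals. Cxcr3, Il2rb, Eomes, Tbx21 and Cd44 place the Ly6c2-high Ccl5-low cells between the other groups, and Igfbp4 and Rgcc do so in the opposite order. Plac8, Dapl1 and Ly6a are highest in the Ly6c2-high Ccl5-low cells in both libraries, not always by 1.5-fold.

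Of 7591 genes tested, 41 were higher in both libraries (0.54%) and 31 lower (0.408%), and with TMM scaling these counts were 50 and 23. They were 48 and 30 with Gzmk at 0 in the Ly6c2-zero cells too. With Ccl5 at 0 in both groups they were 36 and 29, of which 25 and 21 were among the 41 and 31. Since the rule chose the cells, nothing is read from these shares. Of 19 tested genes of a memory list, 9 were higher and none lower: Cxcr3, Tbx21, Eomes, Il2rb, Cd44, Plac8, Il18r1, Ifitm10 and Ms4a4c. The list was chosen with earlier results of these data known. Plac8 also goes with the label, and was nearly level between Ccl5-high (168 and 192 CPM) and Ly6c2-zero cells (167 and 194.5). The list's median was 0.61 in the recipient and 0.58 in the donor, beside -0.05 and -0.02 over all genes tested. Ifitm10 had 22.2 and 41.4 CPM against 6.89 and 9.59, and Ms4a4c, of a family of membrane-spanning proteins, 124 and 152 against 52.7 and 88.0. Il18r1, a chain of the interleukin-18 receptor, had 53.7 and 65.3 CPM against 26.2 and 40.4. Outside that list, Hopx (0.90 and 0.87), the large scaffold gene Ahnak (0.88 and 0.77), Sidt1 (1.01 and 0.70), Pglyrp1 (0.98 and 0.68), Gramd3 (0.72 and 0.70) and Rnf138 (0.62 and 0.70) were higher too. Ly6a, which encodes Sca-1, just passed the fold in the recipient (0.61 [0.51, 0.71]) and just missed it in the donor (0.57 [0.47, 0.68]), where it passed with TMM scaling and with large gene families left out of the totals. Against Ccl5-high cells the Ly6a ratios were 0.21 [0.12, 0.30] and 0.94 [0.87, 1.01], past the fold in the donor only.

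Of 20 naive and stem-like genes, Myb was higher (9.75 and 8.33 CPM against 6.26 and 5.22) and none was lower in both libraries. Tcf7, the gene of the stemness factor TCF-1, had ratios of 0.02 [-0.06, 0.09] and -0.05 [-0.13, 0.04], and the related Lef1 -0.10 [-0.17, -0.03] and -0.10 [-0.18, -0.02]. Ccr7, which guides T cells into lymph nodes, stood at 389 and 380 CPM against 463 and 448, a ratio of -0.25 and -0.24. These 3 genes were therefore within 1.2-fold of the Ly6c2-zero cells. Igfbp4 (ENSMUSG00000017493, chromosome 11, 99041244 to 99054392), whose protein binds insulin-like growth factors, stood at 443 CPM (429 to 458) and 289 (279 to 300.0) against 615 and 554. Its ratio passed the fold in the donor (-0.94 [-1.01, -0.87]) and not in the recipient (-0.47 [-0.53, -0.42]).

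Among the genes lower than in Ly6c2-zero cells, Rgcc, a regulator of the cell cycle, had 70.9 and 60.7 CPM against 172 and 147, a ratio of -1.28 in both libraries, with intervals of -1.41 to -1.14 and -1.43 to -1.13. Tspan32, a tetraspanin gene (-1.08 and -1.01), and Ramp1, a partner of the receptor for the neuropeptide CGRP (-0.98 and -0.85), were lower as well. Actn2 stood at the edge (-0.60 and -0.61) and missed the fold in 4 other settings. Of 13 homing receptor and integrin genes, Cxcr3 was higher and 2 were lower: Ccr9, the gut-homing chemokine receptor, had 13.2 and 6.87 CPM against 57.2 and 32.8, and Itgae, the integrin CD103, 29.98 and 15.8 against 66.7 and 49.6. Their ratios were -2.12 and -2.25 for Ccr9 and -1.15 and -1.65 for Itgae. Ctla4 and Lag3 were lower among 5 inhibitory receptor genes, and Tox among 22 transcription factor genes. Izumo1r, which encodes folate receptor 4 and was picked after its values were seen, had 17.3 and 6.49 CPM against 49.2 and 23.2. Genes of the CD4 T-cell list summed to 10.1 and 4.21 CPM in Ly6c2-zero cells and to 1.95 and 1.26 in Ly6c2-high Ccl5-low cells. Its part in these ratios was not tested.

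Several families did not pass the fold in either direction. None of 8 tested cytotoxic granule genes, 23 type I interferon response genes, 13 interferon-inducible GTPase genes, 13 MHC class I genes, 13 genes of the receptor complex and coreceptor, 15 immediate early genes or 8 survival genes was higher or lower than in Ly6c2-zero cells in both libraries. With TMM scaling Ctsw, of the cytotoxic list, was higher. Gzmm, a granzyme gene at the limit of detection, stood at 3.17 and 11.4 CPM against 0.447 and 1.68. Of 17 cytokine receptor genes, Il2rb and Il18r1 were higher, and Il7r, the interleukin-7 receptor gene, stood at 344 and 333 CPM against 288 and 310. Of 11 S100, galectin and annexin genes, Lgals1 (0.69 and 0.61) and Ahnak were higher and Capg (-0.90 and -0.91) was lower.

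Within the Ly6c2-high Ccl5-low cells, several levels moved with the number of Ly6c2 UMIs. In the recipient, Cxcr3 stood at 44.95 CPM in cells with 2 Ly6c2 UMIs, 39.1 with 3 to 4, 58.6 with 5 to 9, 80.8 with 10 to 19 and 103 (83.3 to 126) with 20 or more. In the donor the same steps gave 71.0, 72.8, 121, 138 and 168 CPM (150 to 188). Just outside the rule, cells with 1 Ly6c2 UMI had 15.1 CPM (10.5 to 21.1) and 49.2 (37.9 to 62.9), and cells with none 16.8 and 28.1. Cxcr3 was thus graded rather than stepped at the threshold in the donor, while in the recipient cells with 1 UMI were level with those without any. In the recipient, Il2rb went from 75.3 CPM at 2 UMIs to 170 (144 to 199) at 20 or more, in the donor from 96.6 to 205 (185 to 227), and Tbx21 from 5.62 to 21.9 and from 2.84 to 38.0. The median depth also moved with the steps, from 7974 to 9589 UMIs (recipient) and from 7669.5 to 9593 (donor), although a level is already a share of UMIs. The part of depth was not tested.

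Igfbp4 and Rgcc ran the other way. Igfbp4 stood at 667.5 CPM (615 to 723) in recipient cells with 2 Ly6c2 UMIs and at 292 (258 to 329) in those with 20 or more, and at 356.5 (314 to 404) and 169 (151 to 189) in the donor. Rgcc stood at 92.2 CPM at the low end and 40.6 at the high end in the recipient, and at 105 and 44.0 in the donor. Dapl1 was nearly flat over the same steps in the recipient (435, 448, 453.5, 492 and 453 CPM) and reached 661 from 555 in the donor. Plac8 spanned 275 to 381 CPM and 249 to 405, with the highest level at 20 or more in both libraries. The cells of the rule were therefore not of 1 level: in the recipient, those with 2 Ly6c2 UMIs lay near cells with none in Il2rb (75.3 against 76.4 CPM) and Igfbp4 (667.5 against 614). The same recipient cells were apart from cells with none in Dapl1 (435 against 254.5 CPM), Plac8 (275 against 167) and Rgcc (92.2 against 172). In the donor, cells with 2 Ly6c2 UMIs had 96.6 (75.01 to 122.5) against 68.2 CPM of Il2rb and 356.5 against 567 of Igfbp4.

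**Figure D2:**
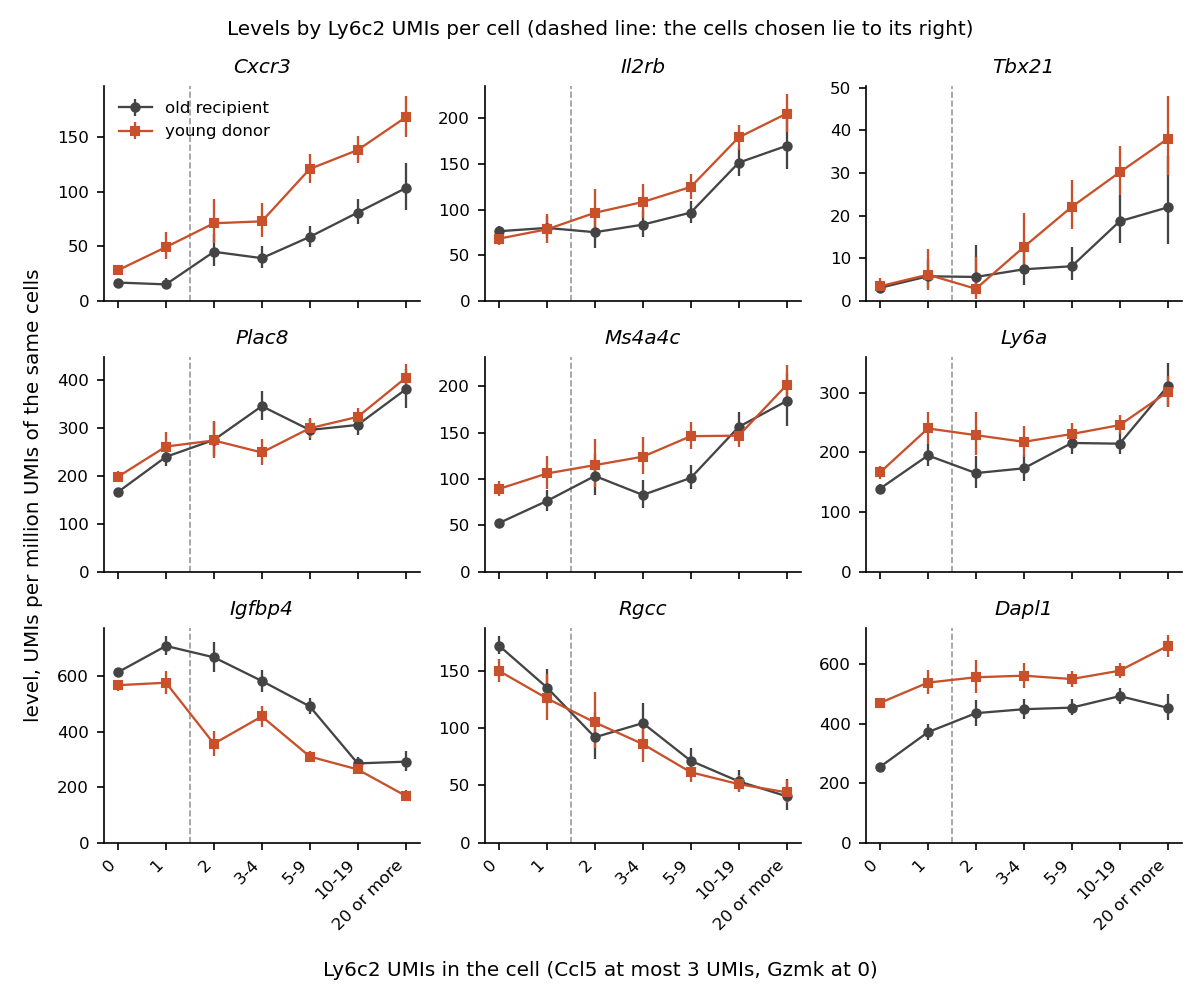
Levels of 9 genes, in CPM, by the number of Ly6c2 UMIs in the cell, for cells with at most 3 Ccl5 UMIs and none of Gzmk; grey circles are the old recipient, orange squares the young donor, bars are exact Poisson intervals and the dashed line marks the threshold of 2 UMIs. Cxcr3, Il2rb and Tbx21 are highest at 20 or more UMIs, Igfbp4 and Rgcc are lowest at or near that end, and Dapl1 in the recipient changes mostly to the left of the line.

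The Ccl5 threshold cut through a range as well. Igfbp4 stood at 488, 453, 313 and 259 CPM in recipient cells with 0, 1, 2 and 3 Ccl5 UMIs, and at 321.5 just outside with 4, 174.5 with 5 to 9 and 48.2 with 10 or more. In the donor these were 324.5, 280, 161 and 144 CPM inside and 172, 106.5 and 25.6 outside. Il2rb had 180 CPM at 3 and 137 at 4 Ccl5 UMIs in the recipient and 202 and 198 in the donor, with 475 and 466 at 10 or more. The 54 and 67 cells with 3 UMIs were few, and their levels overlap those of the 35 and 52 cells with 4. Plac8 did not follow Ccl5 inside the rule, at 308.5, 328.5, 284 and 399 CPM and at 321.5, 324, 328 and 257. Just outside, with 4 and with 5 to 9 Ccl5 UMIs, Plac8 was about as high. It had 301 and 323 CPM there in the recipient and 301 and 343 in the donor, and 183 and 196 with 10 or more. A high Plac8 level was thus not particular to the cells of the rule. S100a6, a calcium-binding protein gene, had 116 and 101 CPM at 3 Ccl5 UMIs and 899 and 795 at 10 or more.

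Ccl5-high cells carried more Ly6c2, at 1895 and 1961 CPM against 1083 and 1338. Compared with them, the Ly6c2-high Ccl5-low cells had far more Igfbp4 and much less of many effector and memory genes. The part of the Ly6c2 level in this contrast was not tested. These ratios share the Ly6c2-high Ccl5-low cells with those above. Igfbp4 had 443 and 289 CPM against 54.5 (50.2 to 59.0) and 26.5 (24.9 to 28.2), ratios of 3.02 [2.90, 3.15] and 3.45 [3.34, 3.55]. Rgcc had 70.9 and 60.7 CPM against 24.1 and 16.1, ratios of 1.55 [1.34, 1.77] and 1.92 [1.75, 2.08]. Ccr7 (1.1 and 0.93), Lef1 (0.85 and 0.70), Actn1 (0.76 and 0.68), Myb (1.85 and 1.23) and Dapl1 completed the 6 of 20 naive and stem-like genes that were higher, with none lower, and Id3 made 7 with either of the other scalings. Tcf7 was not among them, at 306 and 290 against 257 and 244. The list's medians were 0.24 and 0.12, beside -0.12 and -0.06 over all 8193 genes tested.

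Over these genes, 101 were higher in both libraries (1.23%) and 305 lower (3.72%), and nothing is read from these shares, since the rule used this contrast. With TMM scaling the counts were 128 and 250, and the ratios shifted by 0.13 in the recipient and 0.05 in the donor. With Gzmk at 0 in the Ccl5-high cells too, the counts were 106 and 259, of which 95 and 243 were among the 101 and 305. Of 23 tested memory genes 14 were lower and only Plac8 higher, with a median of -1.37 in both libraries. Against Ly6c2-zero cells only 19 were tested, so the rest passed the filter here only through the Ccl5-high cells. Tbx21 had 12.4 and 25.4 CPM against 87.4 and 86.6, ratios of -2.81 [-3.12, -2.52] and -1.77 [-1.96, -1.59]. Il2rb had 117 and 155 against 454 and 457 (-1.96 and -1.56), Eomes 31.8 and 35.1 against 86.8 and 91.1 (-1.45 and -1.37), and Cd44 16.7 and 21.6 against 68.4 and 67.2 (-2.03 and -1.64). The memory genes that set these cells above Ly6c2-zero cells were thus still well under the level of Ccl5-high cells, except Plac8, Ms4a4c and, in the donor, Cxcr3. Ms4a4c had 124 and 152 CPM against 133 and 165. Cxcr3 had 65.2 CPM against 169 in the recipient (-1.37 [-1.51, -1.23]) and 126 against 180.5 in the donor (-0.52 [-0.60, -0.43]), which missed the fold.

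Many cytotoxic granule and NK receptor genes were lower than in Ccl5-high cells, but a number of them passed the filter only through those cells. Gzmm had 3.17 and 11.4 CPM against 109 and 156, ratios of -5.10 [-5.72, -4.55] and -3.77 [-4.05, -3.51]. With the rule read after thinning they were -4.47 and -3.17. In all, 8 of 12 cytotoxic granule genes were lower, with Gzma, Gzmb, Prf1, Nkg7 and Fasl among them. Against Ly6c2-zero cells only 8 of the 12 could be tested, so the rest, Gzmm among them, passed the filter here only through the Ccl5-high cells. That fixed the direction of the rest, and nothing is read from the count of cytotoxic granule genes. Nkg7, a granule membrane protein gene, still had 933 and 947 CPM against 1670.0 and 1518. S100a6 had 82.6 and 88.7 CPM against 957 and 823 (-3.53 and -3.21), and Anxa2 (-2.14 and -1.92), S100a4, Lgals1, Lgals3 and Ahnak were the others of the 6 of 13 S100, galectin and annexin genes that were lower. Pleckstrin (Plek, -3.18 and -2.73), Ctla2a, a cathepsin inhibitor homologue (-3.56 and -2.70), Samd3 (-2.53 and -2.28), Txndc5, a protein disulphide isomerase (-1.98 and -2.12), and Lpin1, a phosphatidate phosphatase (-1.76 and -1.87), were lower too. Of 13 tested NK receptor genes 12 were lower, with medians of -6.45 and -4.74 over the 13. Only 2 of the 16 listed had enough UMIs to be tested against Ly6c2-zero cells. Most thus passed the filter only through the Ccl5-high cells, which fixed their direction, and nothing is read from this count or its medians. Klrk1, which encodes NKG2D, had 1.71 and 1.45 CPM against 161 and 38.8, and Klrg1 had 0 UMIs in the Ly6c2-high Ccl5-low cells of either library against 22.6 and 3.50 CPM. NK marker genes summed to 74.7 CPM in recipient and 6.63 in donor Ccl5-high cells, and to 1.58 and 0.871 in the Ly6c2-high Ccl5-low cells. Gamma-delta genes summed to 24.9 and 7.87 CPM against 2.68 and 1.55. The part of such cells in the ratios was not tested.

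Of 19 homing genes, Ccr7, Ccr9 and Itgae were higher than in Ccl5-high cells and 7 were lower, among them S1pr5, Cxcr6, Ccr2 and Cx3cr1. Only 13 of the 19 could be tested against Ly6c2-zero cells, so the rest passed the filter here only through the Ccl5-high cells. Il6st, which encodes the signalling chain gp130, was the only 1 of 19 cytokine receptor genes that was higher (55.3 and 46.0 CPM against 30.3 and 27.7), and Il2rb, Il18r1, Il18rap and Il10ra were lower. Il7r missed the fold, at 344 and 333 CPM against 482 and 485. Of 16 immediate early genes Fos (0.89 and 0.59) and Egr1 (1.30 and 0.91) were higher. H2-DMa, of the peptide-loading pathway of MHC class II (1.07 and 1.33), Rcn3 (0.90 and 1.21) and Rflnb (0.96 and 0.86) were higher as well.

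A group of interferon-gamma-inducible genes stood out against Ccl5-high cells and not against Ly6c2-zero cells. Of 13 tested interferon-inducible GTPase genes, which defend cells against intracellular pathogens, 6 were higher than in Ccl5-high cells and none lower: Igtp, Tgtp1, Tgtp2, Iigp1, Gbp2 and Gbp6. Of all 8193 genes tested, 1.23% were higher. The list's medians were 0.52 and 0.81, beside -0.12 and -0.06 over all genes tested. Against Ly6c2-zero cells the list's median was -0.02 in both libraries. With TMM scaling, or with large gene families left out of the totals, Irgm1 and Irgm2 joined the 6 higher genes, which made 8. Igtp had 120.0 and 125 CPM against 60.4 and 52.4 (0.99 [0.85, 1.13] and 1.25 [1.15, 1.36]), with 112 and 122 in Ly6c2-zero cells. Tgtp1 had 89.2 and 84.7 CPM against 39.7 and 30.8, Tgtp2 112 and 108 against 67.5 and 51.9, and Gbp2 56.7 and 62.2 against 36.4 and 35.4. Tgtp1 and Tgtp2 are near-identical copies, so the split of reads between them is uncertain. Iigp1 was scarcer, at 12.8 and 11.8 CPM against 3.33 and 1.35 (1.94 and 3.13), as was Gbp6. Gbp3 and Gbp7 did not share the pattern, with ratios of -0.48 and 0.19 for Gbp3 and of -0.39 and -0.26 for Gbp7. In the type I interferon list of 23 genes, Ifit3 was lower (-0.65 and -0.61). With TMM scaling Ifi27l2a was higher and Ifit3 missed the fold.

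**Figure D3:**
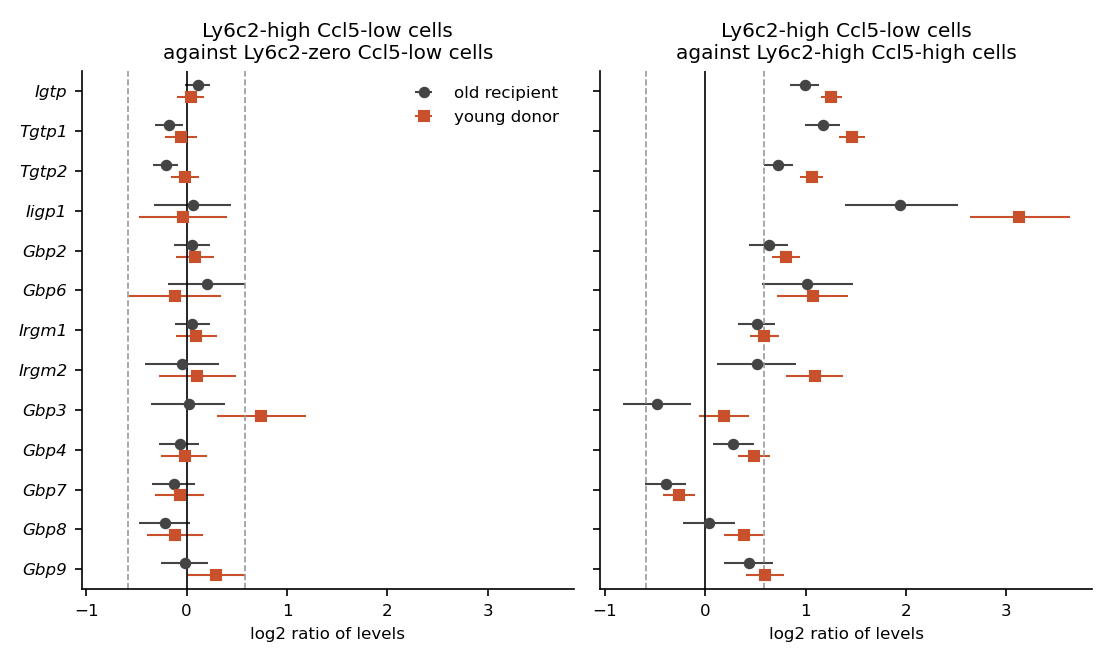
Log2 ratios of levels of 13 interferon-inducible GTPase genes, Ly6c2-high Ccl5-low cells over Ly6c2-zero cells (left) and over Ccl5-high cells (right); grey circles are the old recipient, orange squares the young donor, bars are exact conditional intervals and dashed lines mark 1.5-fold. On the left the values lie around 0, except Gbp3 in the donor at 0.74, and on the right Igtp, Tgtp1, Tgtp2, Iigp1, Gbp2 and Gbp6 lie beyond the line in both libraries.

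Because these genes differed together between the groups of cells, the promoters of those that were higher and had an entry are shown, each as the 250 bases before the start of the gene in RefSeq (build GRCm38.p6), written 5′ to 3′ on the gene's own strand, with capitals on matches to TTCNNNGAA (the gamma-activated site, GAS) or the core of the interferon-stimulated response element (ISRE), which is GAAA, any 2 bases and GAAA again.
Igtp, chr11:58199306-58199555, plus strand: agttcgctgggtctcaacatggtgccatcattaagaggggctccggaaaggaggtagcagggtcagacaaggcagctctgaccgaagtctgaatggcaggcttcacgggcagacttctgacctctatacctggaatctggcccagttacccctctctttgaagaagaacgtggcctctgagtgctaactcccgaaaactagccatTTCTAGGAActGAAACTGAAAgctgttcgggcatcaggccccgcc
Tgtp1, chr11:48992247-48992496, minus strand: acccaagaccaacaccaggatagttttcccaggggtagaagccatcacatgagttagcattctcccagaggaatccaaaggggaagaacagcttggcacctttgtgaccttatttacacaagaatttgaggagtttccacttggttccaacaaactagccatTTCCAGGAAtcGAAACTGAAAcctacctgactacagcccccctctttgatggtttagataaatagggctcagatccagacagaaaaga
Tgtp2, chr11:49064213-49064462, minus strand: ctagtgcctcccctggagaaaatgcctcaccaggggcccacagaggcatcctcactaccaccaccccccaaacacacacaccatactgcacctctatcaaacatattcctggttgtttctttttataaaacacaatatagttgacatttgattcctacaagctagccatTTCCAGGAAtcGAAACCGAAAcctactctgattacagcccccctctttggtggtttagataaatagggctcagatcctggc
Gbp2, chr3:142620413-142620662, plus strand: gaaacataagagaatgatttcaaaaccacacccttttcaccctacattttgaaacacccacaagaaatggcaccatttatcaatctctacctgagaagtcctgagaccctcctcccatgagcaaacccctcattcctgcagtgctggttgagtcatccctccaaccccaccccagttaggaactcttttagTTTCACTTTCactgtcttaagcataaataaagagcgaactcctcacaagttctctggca

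Both motifs were searched on both strands, and 8 of the 14 listed GTPase genes had an entry. GAS was found in 7.04% and the ISRE core in 2.98% of 32526 promoters of this length, and both in 0.329%. Igtp held a GAS 36 bases and an ISRE core 24 bases before the start, Tgtp1 at 79 and 67, and Tgtp2 at 72 and 60. In each of these 3 and in Irgm2, the ISRE core began 2 bases after the GAS ended, an arrangement found in 5 of the 32526 promoters. Gbp2 held an ISRE core 49 bases before the start and no GAS. Matches were also held by Gbp3 and Gbp7, which did not pass the fold against Ccl5-high cells, and by Irgm1 and Irgm2, which passed it in both libraries only with the other scalings. A match is a run of letters and not a measured binding site.

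Between the libraries, Ly6c2-high Ccl5-low cells of the old recipient had less Cxcr3, Tbx21 and Gzmm and more Igfbp4 than those of the young donor. Of 7906 genes tested, 71 were higher in the recipient (0.898%) and 109 lower (1.38%). Cxcr3 stood at 65.2 CPM in recipient and 126 in donor cells, a ratio of recipient over donor of -0.95 [-1.1, -0.80]. It was as unequal in Ly6c2-zero cells (-0.98 [-1.27, -0.68]) and close to equal in Ccl5-high cells (-0.10 [-0.17, -0.02]). Tbx21 stood at 12.4 and 25.4 CPM (-1.03 [-1.37, -0.69]), with 0.01 [-0.09, 0.12] in Ccl5-high cells and -0.47 [-1.25, 0.34] in Ly6c2-zero cells. Gzmm stood at 3.17 and 11.4 CPM (-1.85 [-2.52, -1.23]). Its ratio was -1.91 [-3.81, -0.23] in Ly6c2-zero cells, where it was very scarce, and -0.52 [-0.61, -0.43] in Ccl5-high cells. Il2rb stood at 117 and 155, a ratio of -0.41 [-0.53, -0.29] that missed the fold. Igfbp4 stood at 443 and 289 CPM, a ratio of 0.61 [0.54, 0.68] that became 0.53 when at least 5 Ly6c2 UMIs were asked for. Its ratio was 1.04 [0.89, 1.19] in Ccl5-high cells, which also passed the fold, and 0.15 [0.09, 0.21] in Ly6c2-zero cells. The recipient cells also had fewer Ly6c2 UMIs each (medians of 7 and 9), and the part of this in the other ratios was not tested beyond that setting.

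Some genes were as unequal in every group of cells. Btg2, an antiproliferative gene, had 106 and 42.5 CPM in Ly6c2-high Ccl5-low cells, a ratio of 1.32 [1.15, 1.49], and ratios of 1.28 in Ly6c2-zero and 1.15 in Ccl5-high cells. Ctse, the gene of the protease cathepsin E, had 16.0 and 81.1 CPM (-2.35 [-2.62, -2.08]), with -2.31 and -2.43 in the other groups, and Fcgrt, the gene of the neonatal Fc receptor, 23.3 and 62.2 (-1.42 [-1.66, -1.18]), with -1.31 and -1.11. These differences were not particular to Ly6c2-high Ccl5-low cells. Btg2 and Ctse lie within 10 Mb of Ptprc on chromosome 1, the CD45 locus by which the strains differ. In that window 8 of 50 tested genes passed the fold (16.0%) against 2.28% of all genes tested. Beside Btg2 and Ctse these were Rnpep (2.36), Cxcr4 (2.23) and Cyb5r1 (0.76), higher in the recipient, and Atp2b4 (-1.37), Ddx59 (-0.87) and Rgs1 (-0.63), lower. Ptprc itself had a ratio of 0.09. Library and strain cannot be told apart for these genes.

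**Figure D4:**
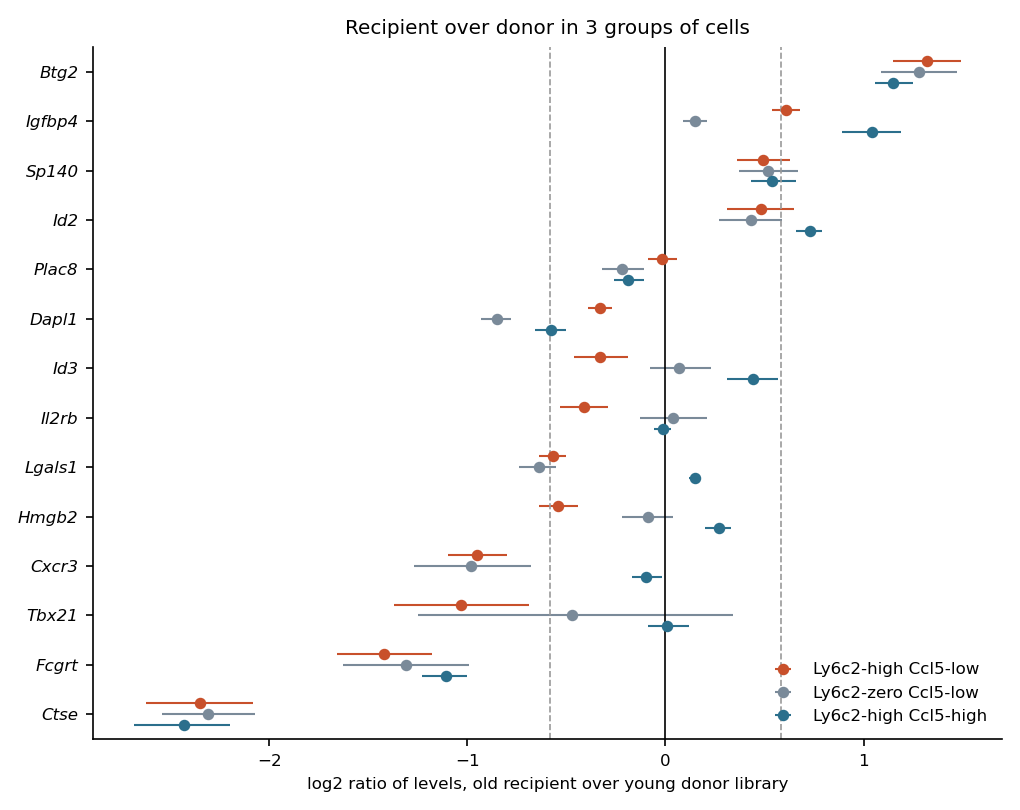
Log2 ratios of levels, old recipient over young donor, for 14 genes within Ly6c2-high Ccl5-low cells (orange), Ly6c2-zero cells (grey) and Ccl5-high cells (blue); bars are exact conditional intervals and dashed lines mark 1.5-fold. Btg2, Fcgrt and Ctse are alike in the 3 groups, while Cxcr3 lies near -0.95 in the Ccl5-low groups and near 0 in Ccl5-high cells.

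Of 22 tested memory genes, 5 were lower in recipient Ly6c2-high Ccl5-low cells: Cxcr3, Tbx21, Gzmm, Il18rap (7.43 and 15.1 CPM) and Ifitm10 (22.2 and 41.4). Xcl1, a chemokine gene, was the only 1 that was higher, at 33.5 and 16.9 CPM. The list's median was -0.15, beside -0.01 over all genes tested, of which 1.38% were lower. Of 20 naive and stem-like genes only Igfbp4 was higher. Ccr7 (0.04 [-0.03, 0.11]), Tcf7 (0.08 [0.00, 0.16]), Lef1 (0.16 [0.09, 0.23]), Id3 (-0.33 [-0.46, -0.19]) and Dapl1 (-0.33 [-0.39, -0.27]) missed the fold, and Plac8 was at -0.02 [-0.09, 0.06]. Dapl1 was lower in the recipient within Ly6c2-zero cells (-0.85 [-0.93, -0.78]). Of 15 homing genes, Cxcr4, Ccr9 (0.94) and Itgae (0.93) were higher and Cxcr3 and Cxcr5 (-1.47) lower. Lgals1 (-0.57), Hmgb2 (-0.54), Sp140 (0.49), Id2 (0.48) and Hopx (-0.47) came close to the fold without passing it. None of 13 GTPase genes, 13 MHC class I genes or 13 receptor complex genes differed past the fold, and Oasl2 was the only 1 of 24 type I interferon genes that was lower (-0.70).

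Of 12 tested cell cycle genes, 7 were lower in the recipient, beside 1.38% of all genes tested: Mki67, Top2a, Stmn1, Pclaf, Birc5, Ccnb2 and Rrm2. Few cells carried them. Cells with 10 or more UMIs over 11 proliferation genes numbered 7 of 926 (0.756%, 0.305 to 1.55) in the recipient and 22 of 1202 (1.83%, 1.15 to 2.76) in the donor, and held 67.2% and 86.2% of those genes' UMIs. These cells were deep, at medians of 14449 and 14894.5 UMIs against 8536 and 8358 in the others, and the part of depth in this count was not tested. Without them, a setting chosen after the data were seen, 76 genes were higher and 86 lower, of which 68 and 82 were among the genes above. The cells left out were chosen by these genes, so nothing is read from the loss of their calls. Of the 7 cell cycle genes only Stmn1 still had enough UMIs to be tested (0.28), and Rrm2, with 6 and 14 UMIs, had a ratio of -0.92.

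The groups of cells were chosen before thinning, so the part of depth in that choice was not set aside here. To even out depth in finding single genes, cells with at least 3500 UMIs were thinned to 3500. This left out 14 and 15 of the Ly6c2-high Ccl5-low cells, 83 and 33 Ly6c2-zero cells and 112 and 91 Ccl5-high cells. The share of Ly6c2-high Ccl5-low cells with a Cxcr3 UMI was then 19.4% (16.9 to 22.1) for the recipient and 32.8% (30.1 to 35.5) for the donor, against 4.41% and 7.36% of Ly6c2-zero cells and 44.2% and 44.5% of Ccl5-high cells. Without thinning it was found in 34.0% and 57.4% of Ly6c2-high Ccl5-low cells. Dapl1 was found in 64.3% (61.1 to 67.4) and 75.3% (72.8 to 77.8), against 34.9% and 58.3% of Ly6c2-zero cells and 24.6% and 35.7% of Ccl5-high cells, and in 76.7% and 87.1% without thinning. Plac8 was found in 55.3% and 58.9%, against 32.8% and 40.96% of Ly6c2-zero and 35.0% and 40.5% of Ccl5-high cells, and in 78.1% and 79.5% without thinning. Igfbp4 was found in 56.1% and 45.9%, against 65.6% and 64.6% of Ly6c2-zero and 8.35% and 4.38% of Ccl5-high cells, and in 71.6% and 62.2% without thinning. As a gene that naive cells should lack, Gzmm was found in 0.987% and 3.20% of Ly6c2-high Ccl5-low cells and in 0.0668% and 0.517% of Ly6c2-zero cells, against 21.5% and 31.7% of Ccl5-high cells, and in 2.59% and 5.99% without thinning. More cells of the rule thus carried Dapl1 and Plac8 than of either comparison group in both libraries, beyond the counting intervals.

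The summed lists were also read cell by cell. After thinning, memory genes gave a median of 15 UMIs (10th to 90th percentile 10 to 23) in recipient and 16 (10 to 24) in donor Ly6c2-high Ccl5-low cells, against 12 (7 to 19) and 13 (7 to 20) in Ly6c2-zero and 25 (15 to 40) and 24 (16 to 34) in Ccl5-high cells. Naive and stem-like genes gave a median of 17 in both libraries, equal to the 17 of Ly6c2-zero cells and above the 13 of Ccl5-high cells. Cytotoxic granule genes gave medians of 7, against 5 in Ly6c2-zero cells and 11 and 10 in Ccl5-high cells. The ranges overlapped, so that no list parted the groups cell by cell.

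The cells used many receptor beta segments. A Trbv segment was found in 99.2% and 99.7% of Ly6c2-high Ccl5-low cells, over 21 and 22 segments, and the leading one, Trbv13-2, made up 8.81% (7.06 to 10.8) and 9.35% (7.76 to 11.1). The Simpson diversity of segments, the chance that a pair of cells differ in segment, was 0.943 and 0.940, against 0.942 and 0.943 in Ly6c2-zero cells and 0.934 and 0.938 in Ccl5-high cells. Trbv29 made up 12.6% (10.9 to 14.5) of recipient Ccl5-high cells and 7.62% (5.99 to 9.53) of recipient Ly6c2-high Ccl5-low cells. Segment use cannot show clones, and receptor sequences were not analysed here.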

How the data were processed

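Droplet libraries of sorted splenic CD8 T cells from 2 groups, 1 library each, were used as the authors deposited them, as counts of UMIs per gene and barcode. The build mm10 and the tools Cell Ranger and Seurat come from the submitters' processing notes, and per the file headers the matrices were written by software version 3.0.2. The annotation release and the way cells were called are not given in the sources used here. GENCODE M21 held 30934 of the 31053 features, and features of 1 symbol were summed (31017 symbols). Barcodes with at least 500 genes and at most 10% mitochondrial UMIs were kept, 5619 and 8001 of 6174 and 8588. UMIs were summed over each group of cells and library, and divided by their total. Because there was 1 library per group, no test was run. Intervals at 95% are exact Poisson for levels, exact conditional binomial for ratios and Clopper-Pearson for shares. Genes with at least 100 UMIs over both groups compared, in each library, were tested against a 1.5-fold threshold. A gene that was scarce in the cells described thus entered only through the comparison group where it was higher.

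The genes named were the 10 with the highest and the 10 with the lowest ratios against each comparison group, of at least 50 CPM in 1 group and ranked by the weaker library, the 12 in each direction between libraries and 20 always named, leaving out receptor segments, ribosomal, mitochondrial and sex-linked genes and gene models; others are members of 26 fixed lists, 9 of them of other cell types, or are said to be chosen later. The members and the lists were chosen with earlier results of these data known. Doublets were scored by 30 nearest neighbours against simulated doublets, at 0.8% per 1000 barcodes, and left out only as an alternative. In all, 13 planned and 2 added settings were tried. Python 3.11.15, numpy 2.4.6, scipy 1.17.1, pandas 2.3.3 and scikit-learn 1.9.0 were used, with R 4.3.3 and edgeR 4.0.16 for TMM factors only. Results on some of the genes in these lists are not reported here, and the receptor libraries were not analysed here.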

Additional observations from a re-analysis of the deposited data

How the results depend on the processing

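No paired analysis was possible because each group had 1 library. Asking for 20 rather than 100 UMIs gave 73 higher and 67 lower genes against Ly6c2-zero cells, 163 and 478 against Ccl5-high cells, and 169 and 258 between libraries. Against Ly6c2-zero cells, reading the rule after thinning gave 65 higher genes, 37 of them among the 41, and asking for at least 5 Ly6c2 UMIs gave 48 lower. The shares of Ly6c2-high Ccl5-low cells were 11.5% and 11.8% with at least 5 Ly6c2 UMIs, 9.34% and 9.62% with Ccl5 at 0, and 15.2% and 16.1% with the rule read after thinning. The other counts stayed within 1.5 times their value, but not always with the same genes: with Ccl5 at 0, 30 of the 71 genes higher and 46 of the 109 lower in the recipient remained. Leaving out barcodes found in both libraries, chosen after seeing the data, gave 44 and 30, 98 and 298, and 73 and 105 genes. Of 1810 recomputed ratios of named genes, 1665 lay within their interval. The other 145 lay outside it in the same direction, or belonged to ratios not past 1.5-fold in the main setting. Of ratios past 1.5-fold in the main setting, 0 were reversed outside their interval. Of 101 named ratios past 1.5-fold, 8 missed it in at least 1 setting: those of Actn2 (recipient and donor), Cd44, Il2rb, Ly6a, Rnf138 and Ssbp2 against Ly6c2-zero cells, all but Actn2 in the recipient only, and Igfbp4 between libraries. The cause was not tested. Counts limit sparse genes such as Gzmm, Tbx21 and Cd44, and no setting can stand in for a second library.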

Other observations

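A few genes passed the fold in opposite directions in the libraries. Axin2, a target of Wnt signalling, was lower than in Ly6c2-zero cells in the recipient (-0.66, 38 and 82 UMIs) and higher in the donor (0.71, 85 and 30 UMIs). Against Ccl5-high cells, Nr4a1, an immediate early gene, was higher in the recipient (0.90, 65 and 47 UMIs) and lower in the donor (-0.60, 42 and 233 UMIs). The proliferation genes Top2a (-0.82 and 0.89), Birc5 (-1.18 and 1.02) and Rrm2 (-0.87 and 0.73) and the histone genes Hist1h2ap (-0.75 and 0.76) and Hist1h2ao (-0.84 and 0.82) were lower than in Ccl5-high cells in the recipient and higher in the donor. The difference between the libraries was not tested for these genes.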
